A study of Mus musculus with 12 samples.

Results

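A set of 10 marker genes of Kupffer cells and other macrophages was followed in whole mouse liver: Marco, Csf1r, Cd5l, Clec4f, Timd4, Vsig4, Adgre1, Cd68, C1qa and C1qb. They were chosen by name, with earlier results of these data known, and each matched 1 of the 56748 genes in the count table. Poly(A) RNA from liver was sequenced in 12 libraries, 3 biological replicates in each of 4 groups: female knockout, female wild type, male knockout and male wild type. The knockout (KO) mice were 129/Sv-Cyp2e1tm1Gonz/J, in which Cyp2e1, an ethanol- and acetaminophen-oxidising cytochrome P450, has been targeted. The wild-type (WT) mice were 129S1/SvImJ. All were 16 weeks old and were kept on normal chow in shared cages, and no treatment separates the groups. Because KO and WT were separate lines, an effect of the allele and a difference between lines cannot be told apart.

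Kupffer cells are the resident macrophages of the liver sinusoids, where they take up bacteria, dying cells and aged red blood cells from portal blood. They depend on signalling through the receptor CSF1R, and their identity in mouse liver is maintained by transcription factors that include PU.1 (gene Spi1), LXRα (gene Nr1h3), ID3 and ZEB2. Cyp2e1 itself is mainly a gene of pericentral hepatocytes.

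The libraries held 15167730 to 25082532 counts, and 14003 genes, all 10 markers among them, had enough counts to be tested. Levels are given as CPM, counts scaled to the TMM-adjusted library size. Cyp2e1 fell to 230 to 323 CPM in female KO livers, against 6213 to 7076 CPM in female WT livers, and to 318 to 403 CPM in male KO livers, against 10374 to 11480 CPM in male WT livers. A set of 9 hepatocyte genes such as Alb and Apoa1 summed to 121279 to 125302 CPM in female KO livers and 102929 to 134920 CPM in female WT livers, as the liver label implies. As counted with TMM scaling, none of them passed the test between KO and WT livers. The libraries differed in how level depended on gene length. The slope of log2 CPM per doubling of gene length, taken over 9363 genes, averaged 0.187 ± 0.102 in female KO and -0.191 ± 0.0436 in female WT libraries (SD, n = 3 each), with no overlap. It averaged 0.0285 ± 0.174 in male KO and -0.0248 ± 0.133 in male WT libraries (SD, n = 3 each), which overlapped. The female results for the 10 markers are therefore also given with this length trend taken into account.

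The bases upstream of the annotated start were available from RefSeq (build GRCm38.p6) for 7 of the 10 markers, and 4 are shown: Marco, Cd5l and Cd68, whose level differed in females, and Clec4f, the marker most restricted to Kupffer cells in mouse liver, whose level did not pass the test. Each is 250 bases long, 5′ to 3′ on the gene's strand, and ends just before the start. They lie at chr1:120505025-120505274 (minus strand), chr3:87357631-87357880 (plus strand), chr11:69666171-69666420 (minus strand) and chr6:83656117-83656366 (minus strand). Capitals mark GAGGAA, the core that PU.1 recognises, and AGGTCA, a site of nuclear receptors such as LXRα, on either strand (TTCCTC and TGACCT on the other strand).
Marco: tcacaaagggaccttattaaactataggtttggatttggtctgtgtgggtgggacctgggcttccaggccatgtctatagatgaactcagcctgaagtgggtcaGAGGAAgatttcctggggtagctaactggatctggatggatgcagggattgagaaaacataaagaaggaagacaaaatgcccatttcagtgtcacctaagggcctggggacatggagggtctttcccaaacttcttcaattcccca
Cd5l: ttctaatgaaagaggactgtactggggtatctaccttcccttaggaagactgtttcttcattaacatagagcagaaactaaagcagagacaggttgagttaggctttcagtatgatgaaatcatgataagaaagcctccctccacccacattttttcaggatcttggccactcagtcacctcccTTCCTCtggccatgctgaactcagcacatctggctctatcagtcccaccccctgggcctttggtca
Cd68: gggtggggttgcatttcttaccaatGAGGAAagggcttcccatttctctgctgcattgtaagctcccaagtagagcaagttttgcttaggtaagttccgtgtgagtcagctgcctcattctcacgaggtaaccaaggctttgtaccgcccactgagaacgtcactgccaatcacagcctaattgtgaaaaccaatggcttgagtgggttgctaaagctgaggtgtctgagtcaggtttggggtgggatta
Clec4f: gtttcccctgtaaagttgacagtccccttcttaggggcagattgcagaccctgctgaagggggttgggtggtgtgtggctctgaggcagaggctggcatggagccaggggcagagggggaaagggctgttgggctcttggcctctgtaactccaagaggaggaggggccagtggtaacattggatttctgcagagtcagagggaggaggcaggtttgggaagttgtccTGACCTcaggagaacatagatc
GAGGAA was found in 5 of the 7 windows (Marco, Cd5l, Vsig4, Cd68 and C1qb), against 23.3% of 32851 mouse windows of the same length. AGGTCA was found in Clec4f and Timd4, 2 of the 7, against 14.0% of all windows. No window held both motifs. These matches describe the letters in the windows and were not tested for binding.

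Per kilobase of gene length, the markers covered a wide range of levels. Averaged over the 12 libraries, Clec4f, a C-type lectin, stood at 24.7 CPM per kb. The C1q chains C1qa and C1qb, which form the recognition unit of the classical complement pathway, followed at 23.4 and 21.9 CPM per kb. Cd5l, a secreted protein of tissue macrophages that protects cells from apoptosis, stood at 19.4 CPM per kb. Vsig4, a complement receptor that binds C3 fragments, had 7.10 CPM per kb. Csf1r, the receptor for CSF1 and IL-34, had 3.13 CPM per kb, Cd68, a glycoprotein of late endosomes and lysosomes, 2.68 CPM per kb, and Timd4, a receptor for phosphatidylserine on dying cells, 2.52 CPM per kb. The lowest levels per kb were those of Adgre1, which encodes the F4/80 antigen, at 1.66, and of Marco, a scavenger receptor that binds bacteria and particles, at 0.951. Marco rested on few reads, with 57 to 96 counts in female KO libraries and 9 to 16 counts in female WT libraries.

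**Figure D1:**
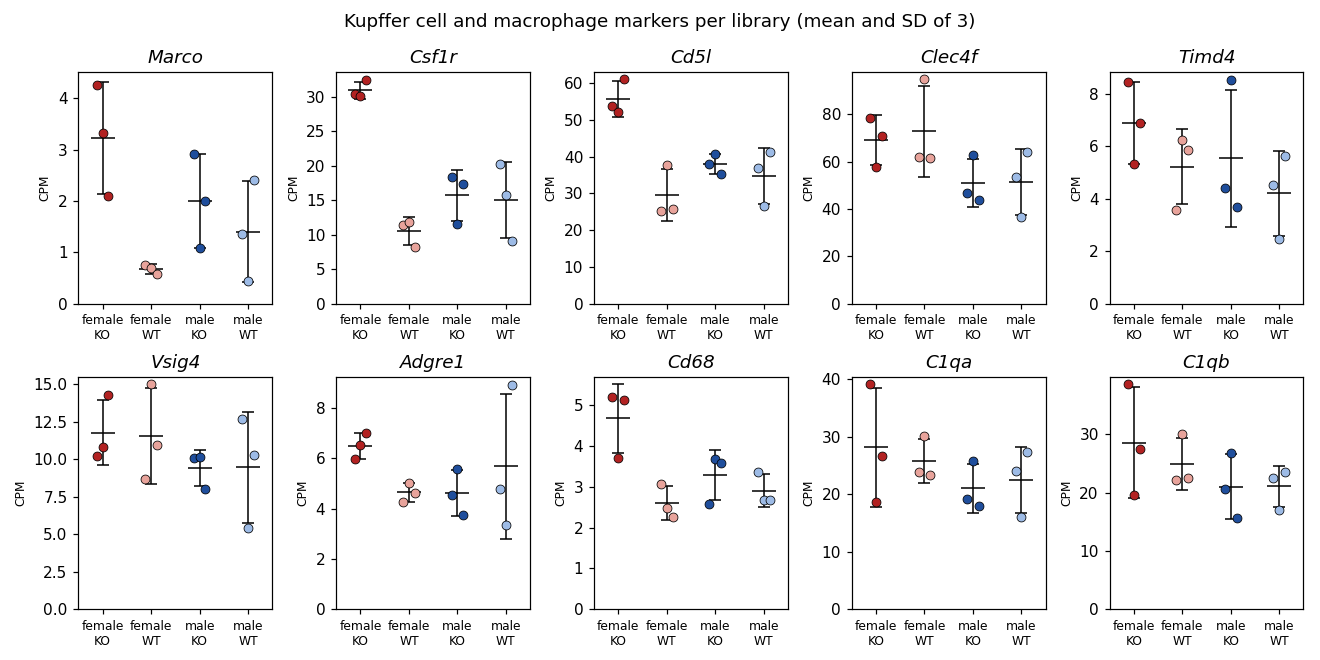
Level (CPM, linear axis from 0) of each of the 10 markers in every library, with female KO, female WT, male KO and male WT libraries from left to right; horizontal bars give the mean and whiskers the SD of 3. For Marco, Csf1r, Cd5l, Adgre1 and Cd68 every female KO library lies above every female WT library, and for all 10 markers the male KO and male WT libraries overlap.

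In females, Marco, Csf1r, Cd5l and Cd68 were higher in KO than in WT livers, and the other 6 markers did not pass the test. In males, none of the 10 passed it. Calls are at an adjusted p under 0.05 by edgeR's quasi-likelihood test with Benjamini-Hochberg adjustment over the 14003 genes. The 4 of 10 markers called higher in females stand beside 17.7% of all genes called higher and 36.5% called in either direction, and 0 markers were called lower, beside 18.8% of all genes. The median log2 fold change was 0.45 over the 10 markers and 0.05 over all genes. In bulk liver, fewer cells of a type and less RNA per cell cannot be told apart, and this holds for every comparison here.

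Csf1r, the growth factor receptor on which Kupffer cells depend, had 30.4, 30.1 and 32.4 CPM in female KO livers, against 11.4, 11.9 and 8.17 CPM in female WT livers. The 3 KO libraries lay close together and all were well above the WT libraries. The log2 fold change was 1.56 ± 0.28 (SE), with an edgeR adjusted p of 0.0132. The Csf1r gene overlaps Hmgxb3 on the opposite strand over 873 bases, and none of the sources used here gives the strand setting of the counting, so reads there cannot be assigned with certainty. Hmgxb3 had 1643 counts over all libraries against 4506 for Csf1r, and its own log2 fold change in females was 0.78 ± 0.39 (SE, edgeR adjusted p = 0.128). The other 9 markers overlap no annotated gene.

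Marco had 4.27, 3.33 and 2.09 CPM in female KO livers, against 0.756, 0.701 and 0.579 CPM in female WT livers. Every KO library lay above every WT library, with a wide spread among the KO libraries. Its log2 fold change of 2.23 ± 0.53 (SE, edgeR adjusted p = 0.0143) had the highest value among the 10 markers and also the largest error.

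Cd5l had 53.7, 52.1 and 61.1 CPM in female KO livers, against 25.1, 37.6 and 25.7 CPM in female WT livers. The groups did not overlap, and WT replicate 2 was the closest of the WT libraries to the KO libraries. The log2 fold change was 0.92 ± 0.21 (SE, edgeR adjusted p = 0.014). Cd68 had 5.20, 3.70 and 5.13 CPM in female KO livers, against 3.07, 2.49 and 2.25 CPM in female WT livers. Its groups did not overlap either, and the log2 fold change was 0.84 ± 0.25 (SE, edgeR adjusted p = 0.0229). Cd68 was the least secure of the 4 calls: its adjusted p was 0.0551 to 0.0784 in 5 of the 12 fits that each left out 1 library, and 0.0597 with no filter on low counts.

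Adgre1 had 5.96, 6.53 and 7.01 CPM in female KO livers, against 4.25, 5.04 and 4.63 CPM in female WT livers. It was the fifth marker whose female groups did not overlap, beside 27.6% of all genes with every KO library above every WT library. With a log2 fold change of 0.49 ± 0.31 (SE, edgeR adjusted p = 0.219) it did not pass the test.

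The remaining 5 markers overlapped between female KO and female WT livers. Clec4f had 78.5, 57.6 and 71.0 CPM in KO livers, against 61.9, 95.1 and 61.6 CPM in WT livers, a log2 fold change of -0.08 ± 0.25 (SE, edgeR adjusted p = 0.82). Its highest and its lowest female level were a WT and a KO library, and the other 4 lay between them. Timd4, at 8.45, 5.32 and 6.90 CPM in KO livers and 3.59, 6.25 and 5.85 CPM in WT livers, differed by 0.40 ± 0.37 (log2, SE, edgeR adjusted p = 0.395). Vsig4, with 10.2, 10.8 and 14.3 CPM in KO livers and 8.69, 15.0 and 10.9 CPM in WT livers, differed by 0.03 ± 0.29 (log2, SE, edgeR adjusted p = 0.941). For both receptors the replicates of a group spread wider than the group means lay apart. C1qa had 39.2, 18.7 and 26.6 CPM in KO livers and 23.9, 30.2 and 23.4 CPM in WT livers, and C1qb had 38.6, 19.6 and 27.4 CPM in KO livers and 22.1, 30.0 and 22.5 CPM in WT livers. In both female groups the library with the most C1qa also had the most C1qb. Their log2 fold changes were 0.13 ± 0.27 and 0.20 ± 0.27 (SE, edgeR adjusted p = 0.736 and 0.568).

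**Figure D2:**
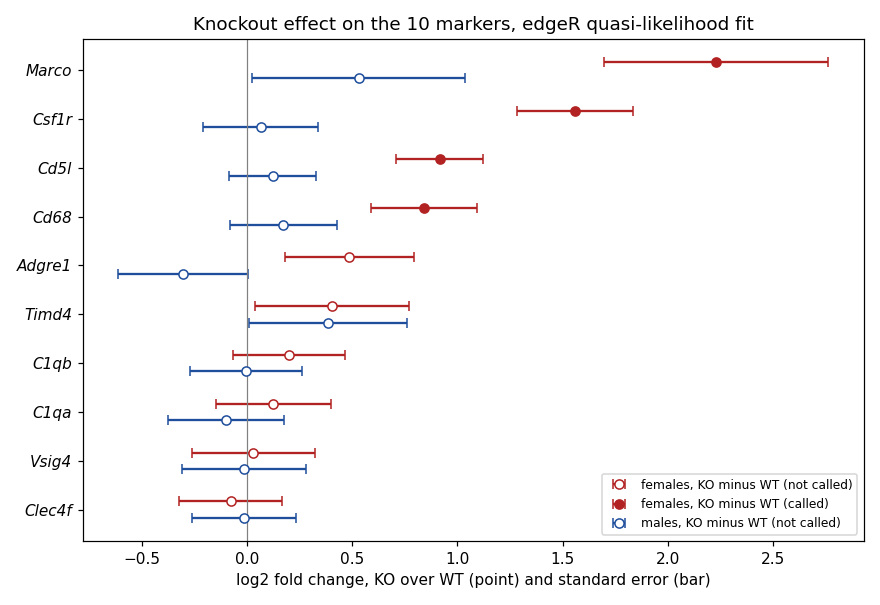
Log2 fold change of KO over WT for each marker in females (red, upper point in each row) and males (blue, lower point in each row), with the standard error from the edgeR quasi-likelihood fit as a bar; filled points have an adjusted p under 0.05. In females Marco, Csf1r, Cd5l and Cd68 are filled, at 2.23, 1.56, 0.92 and 0.84, and no point is filled in males.

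When 1 library was left out, the female log2 fold change ran from 1.98 to 2.46 for Marco, 1.41 to 1.66 for Csf1r, 0.81 to 1.13 for Cd5l and 0.75 to 0.98 for Cd68. The calls of Marco, Csf1r and Cd5l did not hold in 2 of the 12 such fits, and Cd68 was called in only 7 of the 12. Of the 6 markers that were not called, C1qa, C1qb, Clec4f and Vsig4 changed sign in at least 1 of these fits. Without female KO replicate 2, Marco, Csf1r and Cd5l kept log2 fold changes of 2.20, 1.58 and 0.96, but each had an edgeR adjusted p of 0.061, and 0.00701% of all genes were called higher. Without female WT replicate 2, the log2 fold changes were 2.24, 1.66 and 1.13, the adjusted p values 0.056, 0.0554 and 0.0554, and 0.00694% of all genes were called higher. In either case 0 markers were called. In each of the other 10 such fits Marco, Csf1r and Cd5l were called.

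Taking gene length into account raised most markers in females. With the length trend removed from each library, all 10 log2 fold changes were positive, with a median of 0.96 beside 0.10 over all genes. In that fit 6 markers were called higher, beside 15.8% of all genes. Those 6 were Marco (2.68), Cd68 (1.56), Cd5l (1.34), Csf1r (1.34), C1qb (0.99, edgeR adjusted p = 0.0118) and C1qa (0.93, edgeR adjusted p = 0.0136). With the length slope of each library as a term in the model, a term that itself separates the female groups, the median was 1.12. The median over all genes was then -0.02. There 1 marker was called, Timd4 at 1.90 (edgeR adjusted p = 0.0387), beside 0.0428% of all genes called higher. At an unadjusted p under 0.05, 9 of the 10 passed in that fit, beside 9.56% of all genes in either direction. Csf1r, the longest of the 10 at 5774 bases, was the only marker whose value was lower under both treatments, with 1.34 and 0.93 (edgeR adjusted p = 0.0116 and 0.414) beside 1.56 as counted. C1qa and C1qb, the shortest at 1040 and 1088 bases, moved up under both. A rise was not particular to the markers. Medians with the trend removed and with the slope were 0.44 and 0.89 for 20 other macrophage genes, beside -0.04 as counted. For 10 pan-leukocyte genes they were 0.32 and 1.11, beside -0.07, and for 9 hepatocyte genes 0.34 and 0.01, beside 0.00. With the trend removed, 3 of the 9 hepatocyte genes were also called higher, where 0 were called as counted. Sinusoidal endothelium (0.23 and -0.10, beside 0.49) and stellate cells (0.19 and -0.24, beside 0.42) went down.

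**Figure D3:**
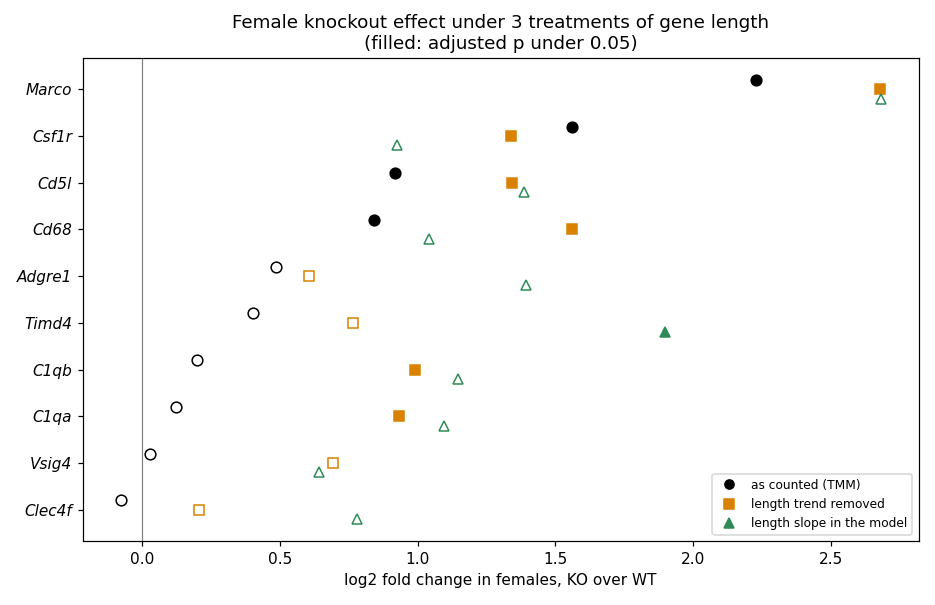
Log2 fold change of KO over WT in females for each marker as counted with TMM scaling (circles), with the length trend removed from each library (squares) and with the length slope as a term in the model (triangles); filled symbols have an adjusted p under 0.05. Squares lie to the right of circles for 9 of the 10 markers, the exception being Csf1r, where the square is at 1.34 and the circle at 1.56.

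Within-library ratios do not depend on library scaling, but they carry the length trend, since C1qa, in the denominator, is the shortest of the 10 markers. C1qb ran at 0.860 to 1.08 reads per C1qa read in all 12 libraries, with no visible difference between groups. C1qc, the remaining C1q chain, ran at 0.806 to 1.06 reads per C1qa read in female KO livers, against 0.623 to 0.691 in female WT livers, and these did not overlap. Csf1r ran at 0.774 to 1.61 reads per C1qa read in female KO livers, against 0.350 to 0.476 in female WT livers. Marco ran at 0.0787 to 0.179 in female KO livers, against 0.0233 to 0.0316 in female WT livers. Cd5l ran at 1.37 to 2.79 in female KO livers, against 1.05 to 1.25 in female WT livers. For these ratios too the female groups did not overlap, nor for Cd68 (0.133 to 0.199 in KO and 0.0825 to 0.128 in WT livers). Clec4f overlapped, at 2.00 to 3.09 in female KO livers and 2.59 to 3.15 in female WT livers. The ratios of C1qb, Timd4, Vsig4 and Adgre1 overlapped in females as well. The share of all genes whose ratio to C1qa separates the female groups was not computed. In males the ratios of Csf1r, Marco, Cd5l and C1qc overlapped between KO and WT livers, and that of Clec4f did not, at 2.43 in each KO liver and 2.24 to 2.34 in WT livers. With the length trend removed, the female log2 fold changes of Marco, Csf1r, Cd5l and C1qa were 2.68, 1.34, 1.34 and 0.93, closer together than the 2.23, 1.56, 0.92 and 0.13 as counted.

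**Figure D4:**
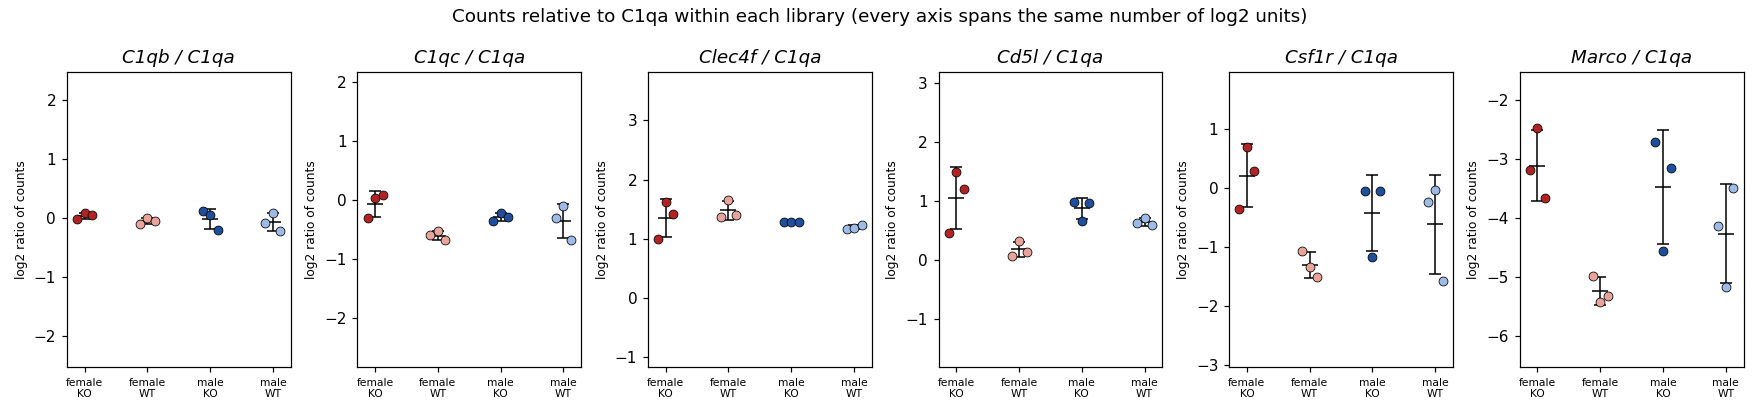
Log2 ratio of counts of C1qb, C1qc, Clec4f, Cd5l, Csf1r and Marco to C1qa within each library, for female KO, female WT, male KO and male WT livers from left to right, with the mean and SD of 3; all axes span the same number of log2 units. C1qb stays near 0 in all groups, and Csf1r is higher in female KO libraries (mean 0.20) than in female WT libraries (mean -1.31).

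In males the 10 markers overlapped between KO and WT livers without exception, and 0 of 10 passed the edgeR test, beside 0.0571% of all genes. No marker reached an unadjusted p under 0.05, beside 4.84% of all genes, and DESeq2 also called 0 markers. Csf1r had 18.4, 11.5 and 17.3 CPM in male KO livers, against 20.2, 15.8 and 9.18 CPM in male WT livers. The lowest and the highest of these were WT libraries, and the log2 fold change was 0.06 ± 0.27 (SE). Marco had 2.91, 1.09 and 2.00 CPM in male KO livers, against 1.36, 0.447 and 2.42 CPM in male WT livers, a log2 fold change of 0.53 ± 0.51 (SE). All male libraries except WT replicate 2 lay within the range of the female libraries. Cd5l had 38.0, 40.7 and 35.2 CPM in male KO livers, against 36.8, 26.4 and 41.2 CPM in male WT livers (log2 fold change 0.12 ± 0.21, SE). Cd68 had 2.59, 3.69 and 3.59 CPM in male KO livers, against 3.37, 2.68 and 2.67 CPM in male WT livers (log2 fold change 0.17 ± 0.25, SE). The other log2 fold changes in males ran from -0.30 for Adgre1 to 0.38 for Timd4. Every marker had an edgeR adjusted p of 1 in males.

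Whether the KO effect differed between the sexes was tested as the difference of log2 fold changes, males minus females. No marker and no gene at all passed the edgeR test (0 of 14003, 0% of genes), and 3 markers, Csf1r, Cd5l and Marco, had an unadjusted p under 0.05, beside 22.5% of all genes. DESeq2 called 0 markers and 218 genes. The difference was -1.49 ± 0.38 for Csf1r, -1.70 ± 0.73 for Marco, -0.79 ± 0.29 for Cd5l and -0.67 ± 0.36 for Cd68 (SE, edgeR adjusted p = 0.204, 0.21, 0.204 and 0.265). With no filter on low counts Csf1r passed, at an edgeR adjusted p of 0.00343. A call in females beside none in males is therefore not shown to be a difference between the sexes. Averaged over both sexes, Marco (1.38, edgeR adjusted p = 0.0376), Csf1r (0.81, 0.0326) and Cd5l (0.52, 0.0398) were called higher, beside 7.78% of all genes, and Cd68 (0.51, 0.0623) was not. Leaving out any 1 library other than male KO replicate 2 or male WT replicate 2 left 0 markers called for this average.

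No marker was called between male and female livers of either genotype. All 10 markers had a lower fitted level in male KO than in female KO livers, with a median log2 fold change of -0.47 beside -0.04 over all genes, and 0 of 10 passed, beside 5.4% of all genes. For Csf1r, Cd5l, Vsig4, Adgre1 and Cd68 every male KO library lay below every female KO library, 5 of 10 beside 14.2% of all genes. Csf1r, at 11.5 to 18.4 CPM in male KO and 30.1 to 32.4 CPM in female KO livers, came closest to the threshold with a log2 fold change of -0.97 ± 0.27 (SE, edgeR adjusted p = 0.0554). With the length trend removed it passed (-0.92, edgeR adjusted p = 0.0366), as did Cd5l, C1qa and C1qb, and DESeq2 called it as well (adjusted p = 0.0135). In WT livers, 0 of 10 passed between males and females, beside 4.49% of all genes, all 10 overlapped, and the median log2 fold change was -0.02. Marco had the highest value there, 1.03 ± 0.55 (SE, edgeR adjusted p = 0.288), and Clec4f the lowest, -0.50 ± 0.25 (SE, edgeR adjusted p = 0.252).

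The length slope varied among male libraries as well, and the markers can be read against it. The 3 male libraries of highest slope, KO replicate 3 (0.169), WT replicate 2 (0.111) and KO replicate 1 (0.0836), had 17.3, 15.8 and 18.4 CPM of Csf1r. The female KO libraries, at slopes of 0.0845 to 0.288, had 30.1 to 32.4 CPM. Within males, the pair of lowest slope, KO replicate 2 (-0.167) and WT replicate 3 (-0.155), had the lowest Csf1r levels, 11.5 and 9.18 CPM, and the highest male C1qa levels, 25.8 and 27.4 CPM. The remaining male library, WT replicate 1, lay between in slope (-0.0297) but had the highest male Csf1r level, 20.2 CPM. Over the 12 libraries, Csf1r had the closest relation of the 10 markers to the slope (Pearson r 0.85, Spearman rho 0.76), and Clec4f the most negative r (-0.43, rho -0.39). These values are a description, since the female groups lie at opposite ends of the slope. Across the 10 markers, the female log2 fold change had a Pearson r of 0.39 and a Spearman rho of 0.27 with gene length. With the 20 further macrophage genes described next included, these were 0.10 and 0.07 over 30 genes, which share the libraries and are not independent replicates. The part of the length slope in the female Csf1r result was not tested beyond the length treatments given above.

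**Figure D5:**
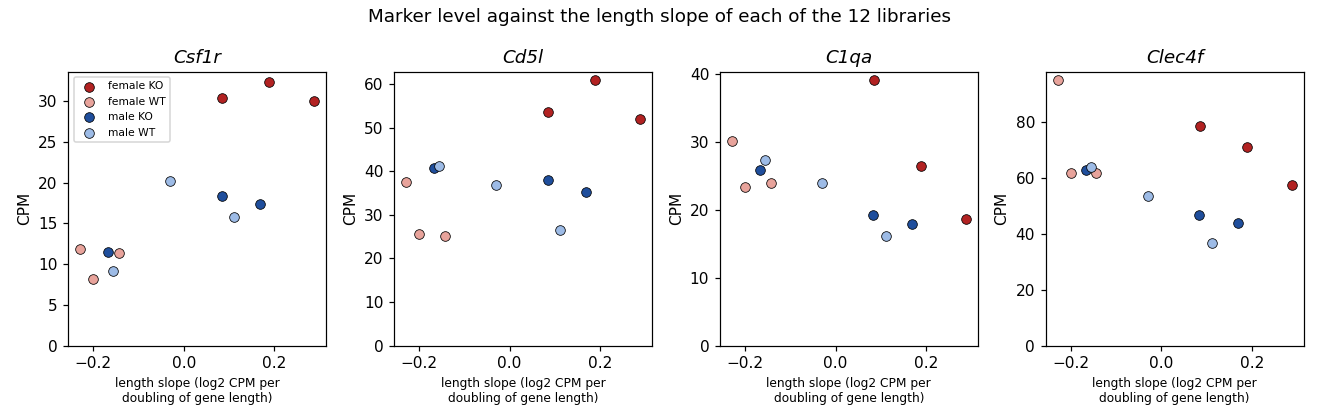
Level (CPM) of Csf1r, Cd5l, C1qa and Clec4f against the length slope of each of the 12 libraries (log2 CPM per doubling of gene length), coloured by group. Female KO libraries, at positive slopes, sit at 30.1 to 32.4 CPM of Csf1r and female WT libraries, at negative slopes, at 8.17 to 11.9 CPM, and among the 6 male libraries C1qa is highest, at 25.8 and 27.4 CPM, in the pair of lowest slope.

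A list of 20 other genes of Kupffer cells and macrophages had 3 called higher and 0 lower in female KO livers, beside 17.7% of all genes called higher and 18.8% lower, so the count of higher calls is near that of all genes (edgeR, medians -0.04 for the list and 0.05 for all genes). These were Axl, a receptor for the uptake of dying cells (13.0 CPM in KO and 6.00 CPM in WT livers, log2 fold change 1.11 ± 0.27, adjusted p = 0.0143), Hmox1, which breaks down heme (0.82 ± 0.19, adjusted p = 0.0142), and Slc11a1, a metal transporter of phagosomes (0.75 ± 0.27, adjusted p = 0.0448). C1qc (0.63, adjusted p = 0.0533) and the haemoglobin scavenger receptor Cd163 (0.78, adjusted p = 0.0648) did not pass. Lyz2, the lysozyme of macrophages and other myeloid cells, had a negative value (-1.17, adjusted p = 0.0708), as had the mannose receptor Mrc1 (-0.45, adjusted p = 0.245). These values are as counted. With the length trend removed, 6 of the 20 genes were called higher and 0 lower, beside 15.8% of all genes called higher, and the median was 0.44. With the length slope in the model, 0 were called and the median was 0.89. Summed over the 20 genes, levels as counted overlapped, at 420 to 477 CPM in female KO and 417 to 557 CPM in female WT livers. The 10 markers summed to 208 to 275 CPM in female KO livers and 165 to 234 CPM in female WT livers, which overlapped too.

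In a list of 14 genes of the CSF1 axis and of macrophage transcription factors, 13 were tested and 3 were called higher and 2 lower in females, a share near the 36.5% of all genes called in either direction. Csf1, the ligand of CSF1R, had 10.1, 8.94 and 8.69 CPM in female KO livers, against 4.91, 3.89 and 5.66 CPM in female WT livers. Csf1 and Csf1r were thus each higher in every female KO library than in any female WT library, as were 27.6% of all genes. Of this list, 5 genes were so placed. Csf1 had a log2 fold change of 0.94 ± 0.32 (SE, edgeR adjusted p = 0.0378). Il34, the other ligand of CSF1R, overlapped (-0.19 ± 0.29, SE, edgeR adjusted p = 0.61). Rxra, the partner of LXRα and other nuclear receptors that hepatocytes express as well, was higher (1.72, edgeR adjusted p = 0.0146), as was Zeb2 (0.62, edgeR adjusted p = 0.0408). Nr1h3 was lower (-0.84, edgeR adjusted p = 0.0173), with 119 ± 8.20 CPM in female KO and 213 ± 38.0 CPM in female WT livers (SD, n = 3 each), and so was Id3 (-0.92, edgeR adjusted p = 0.0367). Both are also expressed outside macrophages in liver. Spi1 had a log2 fold change of 0.72 (edgeR adjusted p = 0.0883) and did not pass. Without female KO replicate 2 or female WT replicate 2, 0 genes of this list and 0 of the 20 macrophage genes were called. With a replicate block, 1 gene of this list was called higher and 1 lower. Csf1 and Csf1r are both long, at 5281 and 5774 bases, and female KO libraries had the higher length slopes. With the length slope in the model, 0 genes of this list were called and its median was 0.004. With the length trend removed, 3 were higher and 1 lower, with a median of 0.25. The part of gene length in the Csf1 result was not tested.

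Markers of other cells were examined in females as well, and their part in the result was not tested. Their counts stand beside 17.7% of all genes called higher, 18.8% called lower and 36.5% called in either direction, and with so few genes a list no count is read as particular to a cell type. All are given without a correction for gene length. With the length slope in the model, 0 genes of these lists were called. Without female KO replicate 2 or female WT replicate 2, 0 were called either. Of 4 tested monocyte genes, 1 was called, Plac8, which was lower (-1.34, edgeR adjusted p = 0.02), and 6 others of that list, Itgam, Cx3cr1, Itgax, Chil3, S100a4 and Ms4a7, were too low to test. The monocyte list summed to 9.72 to 16.5 CPM in female KO and 17.3 to 28.0 CPM in female WT livers. Of 8 tested genes of lipid-associated macrophages 1 was higher (Lpl) and 4 were lower (Cd9, Spp1, Cd63 and Ctsd), while Trem2 and Gpnmb were too low to test. With the length trend removed, 1 gene of that list was higher and 2 were lower. Of 6 tested inflammatory genes, Il18 was lower (-1.28, edgeR adjusted p = 0.014) and none was higher, with Tnf, Il6, Ccl2, Cxcl2, Il10 and Nos2 too low to test. Of 10 pan-leukocyte genes, Laptm5 (1.40, edgeR adjusted p = 0.0142) and Rac2 (1.23, edgeR adjusted p = 0.0143) were higher and 0 were lower. Only 4 of the 10 had a positive log2 fold change, and the list median was -0.07. Tyrobp (-0.89) and Fcer1g (-0.36), the shortest of the list at 667 and 874 bases, were among the genes with negative values. The general leukocyte gene Ptprc, which encodes CD45, overlapped (-0.04, edgeR adjusted p = 0.934), and the list summed to 97.1 to 119 CPM in female KO and 75.9 to 90.7 CPM in female WT livers.

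Sinusoidal endothelium had 5 genes higher and 0 lower of 15 (Cdh5, Flt4, Ptprb, Stab2 and Stab1), with sums of 392 to 551 CPM in female KO and 317 to 411 CPM in female WT livers. With the length trend removed, 2 of the 15 were higher and 0 lower. Stellate cells had 4 higher and 2 lower of 15, near the 36.5% of all genes called in either direction, as were the complement genes below. The B cell receptor genes Cd79a and Ighm were higher in female KO livers, with log2 fold changes of 2.58 ± 0.56 and 1.19 ± 0.41 (SE, edgeR adjusted p = 0.014 and 0.0399). Ighm had 21.1, 8.01 and 6.02 CPM in female KO livers, against 4.73, 5.87 and 4.82 CPM in female WT livers, and Cd79a had 4.05, 1.11 and 1.58 CPM in female KO livers, against 0.236, 0.255 and 0.643 CPM in female WT livers. For both, KO replicate 1 stood highest and the female groups did not overlap, beside 27.6% of all genes with every KO library above every WT library. The Cd79a levels in female WT livers lay near or below those of Marco (0.579 to 0.756 CPM), so they too rested on few reads. Cholangiocytes had 2 higher and 2 lower of 7, neutrophils 1 higher of 2 (Csf3r), dendritic cells 1 higher of 5 (Zbtb46) and erythroid cells 0 of 5. Among 18 tested complement genes of hepatocytes, C3, C4b, Masp1 and C8a were higher and C8g and Mbl1 lower. In males, 0 genes of any of these lists passed the edgeR test.

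Over all 12 libraries, the genes whose log2 CPM was most like the mean standardised level of the 10 markers were Hk3 (Pearson r 0.92, Spearman rho 0.84), C1qc (0.90 and 0.85), Zbtb37 (0.89 and 0.94), Rab36 (0.87 and 0.86), Gm4952 (0.86 and 0.91) and Lsp1 (0.84 and 0.86). They were picked from 10111 protein-coding genes by this likeness, so the values are a description. In females, Rab36 (1.33), Lsp1 (1.03) and Zbtb37 (0.99) were called higher in KO livers and Hk3, C1qc and Gm4952 were not. The mean standardised level was highest in female KO replicates 1 and 3 (1.28 and 1.02) and lowest in male WT replicate 2 (-1.41), while female KO replicate 2 (0.34) and female WT replicate 2 (0.30) lay side by side.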

How the data were processed

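Raw counts per gene were used as deposited by the authors, in 1 table with gene symbols, identifiers, lengths and mm39 positions. HISAT2 2.0.5, DESeq2 and the mm39 build are named, without roles, in the submitters' processing notes. None of the sources used here gives the counting program or its strand setting. Columns were matched to samples by the library number in the labels. The 10 markers and the other 15 lists were chosen with earlier results of these data known, and 1 of the lists, of lymphocyte genes, is reported only in part.

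Genes were kept by filterByExpr in edgeR 4.0.16 (R 4.3.3), which left 14003 of 56748 genes with 99.92% of the counts. TMM scaling, group means over all 12 libraries (residual degrees of freedom: 8) and edgeR's quasi-likelihood test gave 6 contrasts, with Benjamini-Hochberg adjustment over all genes within each and calls at 0.05. Standard errors were computed as the fold change on the log2 scale divided by the root of the F statistic. Log2 CPM used a prior count of 2. The pipeline was tested on simulated counts. No pair of replicates was as alike as reads of 1 library would be (chi-square over its degrees of freedom from 15.75 to 141). Alternatives were RLE scaling, no filter, DESeq2 1.42.0, a replicate block, 2 length treatments (loess span 0.5) and leaving out each library. Named genes were all 10 markers, called genes of the other lists (up to 4 of smallest adjusted p, others by name only), genes of most like pattern, and genes chosen after their values were seen: C1qc, Cd163, Lyz2, Mrc1, Il34, Spi1, Ptprc, Tyrobp, Fcer1g, Hmgxb3 and the untested genes listed as too low.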

Additional observations from a re-analysis of the deposited data

How the results depend on the processing

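The member values followed under other settings were those of all 10 markers between KO and WT in each sex. For the mean, the difference and the sex contrasts, only Marco, Csf1r, Cd5l and Cd68 were included. Of these values, 200 kept their direction and side of the threshold under the other settings, 18 changed sign, 12 newly passed and 18 no longer passed. The replicate numbers do not pair the libraries (correlation of deviations -0.80 to 0.45 over 18 same-number pairs, 4 of them over 0.1). With a replicate block, 4 markers and 3365 genes were called in females, 0 markers and 23 genes for the mean of both sexes, and 415 genes between WT sexes. With the length slope in the model, 1 marker and 10 genes were called in females, 18 genes in males, 1 marker and 21 genes for the mean, 3 genes for the difference of effects and 5 markers between KO sexes. With block and slope together these were 0 markers and 1 gene in females, 0 markers and 15 genes for the mean, 2 genes for the difference and 5 markers between KO sexes. With the length trend removed, 6 markers were called for the mean and 4 between KO sexes. With no filter on low counts, 101 genes were called in males, 3900 for the mean (where the median of all genes moved to 0.11), 1 marker and 1451 genes for the difference, 1700 genes between WT sexes, and 1 marker and 1694 genes between KO sexes. DESeq2 called 34 genes in males, 3959 for the mean, 218 for the difference, 1226 between WT sexes, and 1 marker and 1395 genes between KO sexes. The causes were not tested.

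Values that changed sign were all of markers not called in that contrast. In females, Clec4f was 0.78 with the slope, 0.21 with the trend removed and 0.78 with block and slope. In males, in the same order, Clec4f was 0.13, 0.047 and 0.13, Vsig4 0.095, 0.092 and 0.10, and C1qb 0.12, 0.063 and 0.12, with C1qb at 0.0071 under RLE and 0.0073 in DESeq2. With the slope, and with block and slope, Csf1r was -0.035 and -0.0096 and C1qa 0.065 and 0.066 in males.

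Leaving out 1 library at a time, 0 to 4 markers and 4 to 5993 genes were called in females, 5 to 18 genes in males, 0 to 3 markers and 18 to 5594 genes for the mean, 0 to 2 genes for the difference, 379 to 1124 genes between WT sexes, and 0 to 1 marker and 440 to 953 genes between KO sexes. Log2 fold changes that changed sign ran, in females, from -0.19 to 0.35 for C1qa, -0.077 to 0.41 for C1qb, -0.19 to 0.16 for Clec4f and -0.14 to 0.26 for Vsig4. In males they ran from -0.57 to 0.17 for Adgre1, -0.29 to 0.062 for C1qa, -0.22 to 0.17 for C1qb, -0.042 to 0.26 for Cd5l, -0.21 to 0.17 for Clec4f, -0.19 to 0.36 for Csf1r, -0.058 to 0.64 for Timd4 and -0.29 to 0.27 for Vsig4. Depth limits Marco most, with 8 to 96 counts a library.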
